A study of Mus musculus with 7 samples.

Results

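The Notch pathway genes described here are 10 members taken by symbol: the receptor genes Notch1, Notch2 and Notch3, the ligand genes Jag1 and Dll1, the fringe gene Lfng, and the repressor genes Hes1, Hes5, Hey1 and Heyl. They are 10 of the 23235 gene symbols in the deposited tables, and each had 1 entry in every table. RNA was sequenced from 7 cultured fetal mouse kidneys of strain C57BL/6, of which 3 were beta-catenin activated and E2-2 deleted and 4 were beta-catenin activated and E2-2 wildtype. Controls included, every library thus had activated beta-catenin, which carries canonical Wnt signals into the nucleus. E2-2 is the protein of the mouse gene Tcf4 and binds DNA through a basic helix-loop-helix domain. The pregnant mice were injected with tamoxifen at 10.5 days post coitum (2 mg per 40 g of body weight), and the kidneys were dissected at 10.5 days and cultured for 3 to 4 days. The labels give neither the promoter of the recombinase nor the deleted exons, nor whether the libraries of a genotype came from different animals. A p-value therefore sets a difference against the spread of these 7 samples alone, and part of that spread may be technical. Levels are in FPKM, a fragment count divided by transcript length and by library size, and a difference is the deleted mean less the wildtype mean of log2(FPKM + 1). Loci are those of the deposited tables, whose genome build is not given in the sources used here.

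Notch receptors are cut after they bind a ligand on a neighbouring cell, and the freed intracellular part joins the DNA-binding protein RBPJ in the nucleus to switch on target genes, among them the HES and HEY repressors. Fringe enzymes such as the product of Lfng add a sugar to the receptor and change which ligands activate it. In the mouse kidney, Notch signalling acts as the mesenchyme that surrounds the ureteric bud forms nephrons, where Notch2 is needed for proximal tubules and podocytes and where Jag1, Dll1 and Lfng are made in the early nephron. Notch3 and Heyl are also known from the cells that wrap blood vessels, and Notch4, Dll4 and Hey1 from endothelium.

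Among the members with a promoter in the RefSeq table (7 of the 10: Notch1, Notch2, Notch3, Jag1, Dll1, Lfng and Hes5), Hes5 and Lfng are shown because theirs were the promoters that held the core letters of the RBPJ motif. The motif searched was TGGGAA on either strand, in the 250 bases before the transcription start, and it is in capitals below, where TTCCCA is the same motif on the other strand. Both sequences are on the plus strand of GRCm38.p6, the Hes5 promoter at chr4:154960673-154960922 and the Lfng promoter at chr5:140607091-140607340.
Hes5: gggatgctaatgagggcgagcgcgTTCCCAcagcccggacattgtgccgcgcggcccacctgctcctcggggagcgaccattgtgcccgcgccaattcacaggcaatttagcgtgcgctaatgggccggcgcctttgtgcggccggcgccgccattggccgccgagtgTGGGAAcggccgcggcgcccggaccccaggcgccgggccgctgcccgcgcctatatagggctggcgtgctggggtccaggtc
Lfng: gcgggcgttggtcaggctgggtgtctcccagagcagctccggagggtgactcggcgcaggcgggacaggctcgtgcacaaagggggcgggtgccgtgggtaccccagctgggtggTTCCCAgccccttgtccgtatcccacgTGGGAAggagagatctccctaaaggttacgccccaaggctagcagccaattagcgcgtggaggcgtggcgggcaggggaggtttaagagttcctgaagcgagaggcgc
The 2 matches began 226 and 82 bases before the start of Hes5 and 135 and 108 bases before that of Lfng. Of the 32851 promoters of this length in the table, 21.6% held at least 1 match and 2.77% held 2 or more. The windows of Notch1, Notch2, Notch3, Jag1 and Dll1 held none. E-boxes, the sites of basic helix-loop-helix proteins (CANNTG, which reads alike on both strands), stood in 66.2% of all promoters and in those of Jag1, Dll1, Lfng and Hes5. N-boxes, a site class of HES repressors (CACNAG, both strands), stood in 36.7% of all promoters and in those of Notch1, Notch2, Notch3 and Lfng. In Lfng an E-box overlapped the RBPJ match nearest to the start. A match describes letters in this window and shows no binding.

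The inferred depth was 17.7 to 24.9 mega-fragments in the E2-2 deleted libraries and 14.6 to 26.6 in the E2-2 wildtype libraries. Tcf4 was at 33.5 to 42.0 FPKM in the deleted and 28.7 to 58.1 FPKM in the wildtype libraries, and a whole-gene FPKM does not check a deletion of some exons. Kidney markers were present in all 7 libraries, but E2-2 deleted replicate 2 stood apart. Its summed FPKM of 6 nephron progenitor genes was 52.3, against 166 and 243 in the other deleted libraries and 122 to 275 in the wildtype libraries. Its leading progenitor gene, Cited1, was at 3.60 FPKM, against 65.6 and 39.3 FPKM in the other deleted and 26.6 to 76.8 FPKM in the wildtype libraries. It was also the lowest of the 7 libraries in 44.4% of all genes tested, or 28.9% after scaling each library by its median ratio to the others. In E2-2 wildtype replicate 2, the sum of 5 podocyte genes was 114 FPKM and that of 5 proximal tubule genes 22.6 FPKM, against at most 73.1 and 8.75 FPKM in any other library. The deposited names of 4 libraries begin with BI (deleted replicates 1 and 2, wildtype replicates 1 and 2) and those of 3 with BM (deleted replicate 3, wildtype replicates 3 and 4), and what the prefix stands for is not given in the labels. In whole kidneys, fewer cells of a type and less RNA per cell cannot be told apart.

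Of the 10 Notch members, 9 were tested, and none passed the test for a difference between E2-2 deleted and E2-2 wildtype kidneys. Hey1 and Dll1 had the largest differences, at -0.57 and -0.64, and both differences were smaller without E2-2 deleted replicate 2. Hes1, the most abundant member, was nearly equal in 6 of the 7 libraries. Hes5 was at the edge of detection in every library, and the differences of the 3 receptors were -0.22 to -0.04.

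By mean FPKM over the 7 libraries, the members ran from Hes1 (36.1 ± 6.03, SD, n = 7) through Heyl (31.0 ± 6.29), Notch3 (28.0 ± 3.76), Hey1 (25.3 ± 6.75), Jag1 (23.7 ± 4.54), Notch1 (23.4 ± 5.45) and Notch2 (21.6 ± 1.92) to Lfng (7.39 ± 2.00), Dll1 (3.52 ± 1.40) and Hes5. Neighbours among the first 7 in this order did not differ beyond their spread. Lfng was below Notch2, Dll1 below Lfng and Hes5 below Dll1 in 7 of 7 libraries.

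**Figure D1:**
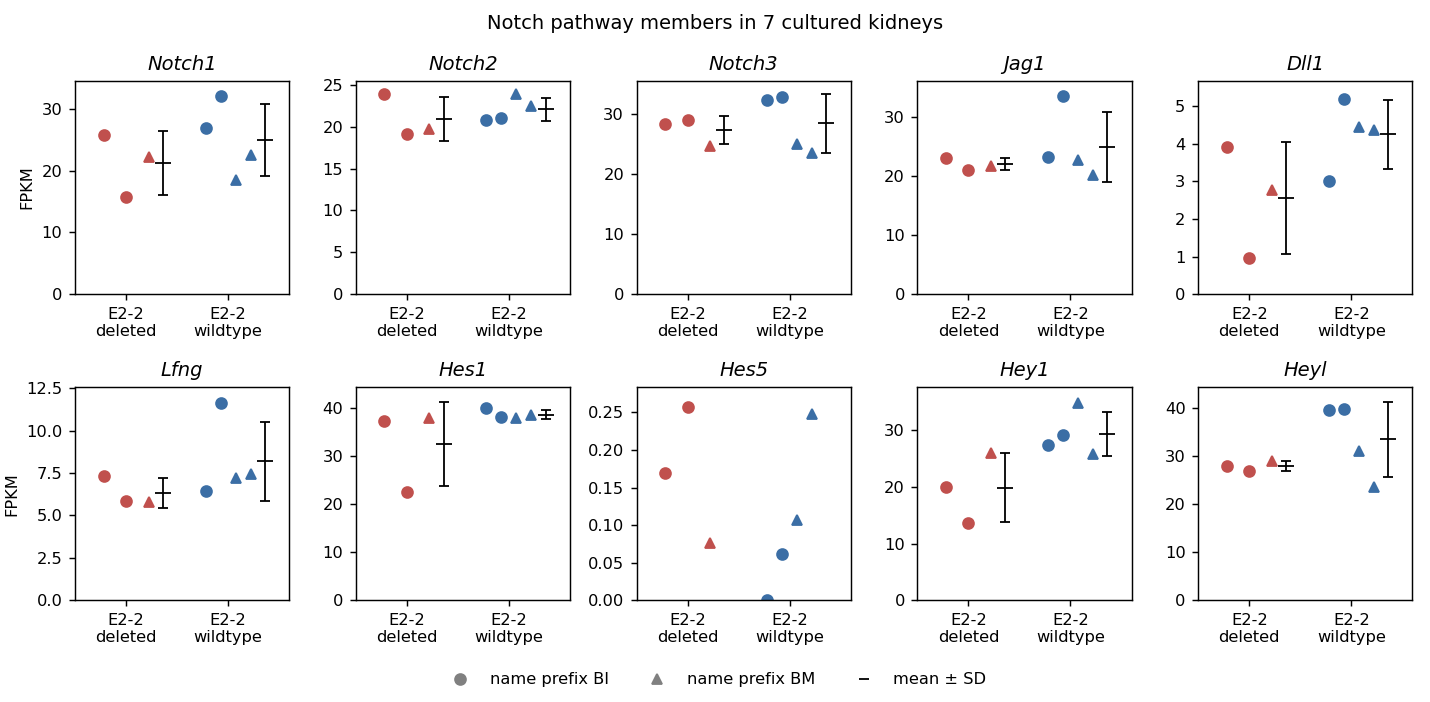
FPKM (vertical axis, from 0) of each of the 10 members in the 3 E2-2 deleted (red) and the 4 E2-2 wildtype (blue) libraries; circles are libraries with the name prefix BI and triangles those with BM, in order of replicate number from left to right, and the black mark is the mean ± SD of a genotype (not drawn for Hes5, which was near 0). The second deleted library, at 22.6 FPKM, stands alone below the other 6 in Hes1, and the groups overlap in every panel.

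Notch1 (chromosome 2, 26313422 to 26359342), a receptor of endothelium and early nephrons, was at 25.8, 15.7 and 22.2 FPKM in E2-2 deleted replicates 1 to 3, against 26.8, 32.1, 18.5 and 22.5 FPKM in E2-2 wildtype replicates 1 to 4. The groups overlapped, with the lowest value in deleted replicate 2 and the highest in wildtype replicate 2. The means were 21.3 ± 5.16 FPKM in deleted (SD, n = 3) and 24.99 ± 5.80 FPKM in wildtype libraries (SD, n = 4), and the difference was -0.22 (SE 0.22, 95% CI -0.73 to 0.28; limma adjusted p = 0.799, exact permutation p = 0.371). By name prefix it was -0.52 (BI) and 0.12 (BM). It was -0.03 without deleted replicate 2 and -0.10 without wildtype replicate 2, and -0.37 and -0.35 without deleted replicate 1 and wildtype replicate 3.

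Notch2 (chromosome 3, 97817461 to 97954290), the receptor needed for proximal nephrons, had the narrowest span of the tested members, its highest library being 1.25 times its lowest. It was at 24.0, 19.1 and 19.7 FPKM in the deleted libraries, against 20.8, 21.1, 23.9 and 22.5 FPKM in the wildtype libraries, and the groups overlapped. The difference was -0.08 (SE 0.11, 95% CI -0.33 to 0.17; limma adjusted p = 0.839, exact permutation p = 0.457). By name prefix it was 0.03 (BI) and -0.22 (BM), and it ranged from -0.18 to -0.02 when each library was left out in turn.

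Notch3 (chromosome 17, 32257838 to 32303797), the receptor of vessel-wall cells, was at 28.3, 29.1 and 24.7 FPKM in the deleted libraries, against 32.5, 32.9, 25.01 and 23.6 FPKM in the wildtype libraries. The split followed the name prefix more than the genotype: each BI library was above each BM library. The difference was -0.04 (SE 0.15, 95% CI -0.38 to 0.29; limma adjusted p = 0.935, exact permutation p = 0.857), and its sign turned with the setting (-0.18 within BI, 0.03 within BM, 0.01 after median-of-ratios scaling).

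No receptor dominated, although Notch3 was the highest of Notch1 to Notch4 in every library. Notch3 held 31.7%, 40.5% and 32.0% of the summed FPKM of Notch1 to Notch4 in the deleted libraries, against 33.2%, 31.6%, 32.7% and 29.4% in the wildtype libraries. Notch1 held 29.0%, 21.8% and 28.7% in the deleted libraries, against 27.4%, 30.8%, 24.3% and 28.2% in the wildtype libraries. Notch2 held 26.9%, 26.6% and 25.5% in the deleted libraries, against 21.3%, 20.3%, 31.3% and 28.1% in the wildtype libraries, where the BM libraries had the larger shares. The share of Notch2 differed by 1.07 percentage points (exact permutation p = 0.800, adjusted p = 0.800 over the 3 ratios examined), by 5.93 within BI and by -4.18 within BM.

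Jag1 (chromosome 2, 136907187 to 136942256), a membrane ligand of developing nephrons and vessels, was at 23.1, 21.1 and 21.7 FPKM in the deleted libraries, against 23.3, 33.6, 22.7 and 20.1 FPKM in the wildtype libraries. Wildtype replicate 2 was alone at the top, and the other 6 libraries lay close together. The means were 21.96 ± 1.01 FPKM in deleted (SD, n = 3) and 24.9 ± 5.96 FPKM in wildtype libraries (SD, n = 4). The difference was -0.15 (SE 0.17, 95% CI -0.54 to 0.24; limma adjusted p = 0.815, exact permutation p = 0.657); by name prefix it was -0.33 within BI and 0.02 within BM. Without wildtype replicate 2 it was -0.0028, and without wildtype replicate 4 it was -0.24.

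Dll1 (chromosome 17, 15504318 to 15512787), a ligand of early nephrons, was the lowest of the detected members and the most variable. It was at 3.92, 0.972 and 2.78 FPKM in the deleted libraries, against 3.00, 5.18, 4.45 and 4.36 FPKM in the wildtype libraries. The value in deleted replicate 2 rested on about 56 inferred fragments, and up to 377 were inferred in another library. Deleted replicate 2 was far below the rest, deleted replicate 1 was above wildtype replicate 1, and the groups overlapped. The means were 2.56 ± 1.49 FPKM in deleted (SD, n = 3) and 4.25 ± 0.910 FPKM in wildtype libraries (SD, n = 4). The difference was -0.64 (SE 0.31, 95% CI -1.37 to 0.08; limma adjusted p = 0.795, exact permutation p = 0.0857); by name prefix it was -0.67 within BI and -0.52 within BM. Without deleted replicate 2 it was -0.27, and with a weight per library it was -0.31. Deleted replicate 2 was also the library with the lowest sum of nephron progenitor genes, and the part of that in the difference was not tested.

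Jag1 made up 85.5%, 95.6% and 88.7% of the summed FPKM of Jag1 and Dll1 in the deleted libraries, against 88.6%, 86.6%, 83.6% and 82.2% in the wildtype libraries. The share differed by 4.65 percentage points (exact permutation p = 0.171, adjusted p = 0.514 over the 3 ratios). It differed by 2.92 within BI, by 5.76 within BM and by 1.81 without deleted replicate 2.

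Lfng (chromosome 5, 141083295 to 141091499), the fringe gene whose promoter is shown above, was at 7.33, 5.84 and 5.78 FPKM in the deleted libraries, against 6.46, 11.6, 7.22 and 7.44 FPKM in the wildtype libraries. Wildtype replicate 2 was again alone at the top, and the groups overlapped. The means were 6.31 ± 0.879 FPKM in deleted (SD, n = 3) and 8.19 ± 2.34 FPKM in wildtype libraries (SD, n = 4). The difference was -0.30 (SE 0.20, 95% CI -0.76 to 0.15; limma adjusted p = 0.795, exact permutation p = 0.171); by name prefix it was -0.36 within BI and -0.30 within BM. Without wildtype replicate 2 it was -0.14.

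Wildtype replicate 2 was the highest of the 7 libraries in 6 of the 9 tested members (Notch1, Notch3, Jag1, Dll1, Lfng and Heyl), against 11.9% of all genes tested. The count stayed 6 after median-of-ratios scaling, where the share of all genes was 11.2%. In Notch3 and Heyl the lead was narrow, at 32.9 and 39.8 FPKM, against 32.5 and 39.6 FPKM in wildtype replicate 1. Wildtype replicate 2 also had the highest podocyte and proximal tubule sums, with the podocyte gene Podxl at 53.9 FPKM, against 18.3 to 28.5 FPKM in the deleted and 6.89 to 17.3 FPKM in the other wildtype libraries. The part of those markers in the members' levels was not tested. Deleted replicate 2 was the lowest in 5 of the 9 (Notch1, Notch2, Dll1, Hes1 and Hey1), beside 44.4% of all genes tested, and in 4 of the 9 after median-of-ratios scaling, beside 28.9%.

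Hes1 (chromosome 16, 30065443 to 30067882), a repressor that many cell types switch on after Notch activation, was at 37.3, 22.6 and 38.1 FPKM in the deleted libraries, against 40.1, 38.2, 38.0 and 38.5 FPKM in the wildtype libraries. The 6 libraries other than deleted replicate 2 lay within 37.3 to 40.1 FPKM, and the groups overlapped, since deleted replicate 3 was just above wildtype replicate 3. The means were 32.6 ± 8.73 FPKM in deleted (SD, n = 3) and 38.7 ± 0.931 FPKM in wildtype libraries (SD, n = 4). The difference was -0.28 (SE 0.18, 95% CI -0.69 to 0.14; limma adjusted p = 0.795, exact permutation p = 0.0571); by name prefix it was -0.42 within BI and -0.01 within BM. It was -0.04 without deleted replicate 2 and -0.08 with a weight per library.

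Hey1 (chromosome 3, 8663359 to 8667038), a repressor of endothelium and other Notch-responsive cells, was at 20.1, 13.7 and 25.9 FPKM in the deleted libraries, against 27.4, 29.3, 34.8 and 25.8 FPKM in the wildtype libraries. The groups overlapped by the width of 1 pair, deleted replicate 3 being just above wildtype replicate 4. The means were 19.9 ± 6.14 FPKM in deleted (SD, n = 3) and 29.3 ± 3.91 FPKM in wildtype libraries (SD, n = 4). The difference was -0.57 (SE 0.21, 95% CI -1.05 to -0.10; limma unadjusted p = 0.0244, adjusted p = 0.795, exact permutation p = 0.0571), -0.74 within BI and -0.20 within BM. It was -0.34 without deleted replicate 2 and -0.21 with a weight per library, and it kept its sign in all 18 alternative settings. The endothelial genes, summed over a list of 10, were at 358 to 548 FPKM in the deleted and 274 to 605 FPKM in the wildtype libraries, and wildtype replicate 3, with the highest Hey1, had the lowest of these sums. The part of endothelial or other cells in Hey1 was not tested.

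Heyl (chromosome 4, 122910799 to 122927113), a repressor of smooth muscle and pericytes, was at 27.8, 26.8 and 29.0 FPKM in the deleted libraries, against 39.6, 39.8, 30.9 and 23.6 FPKM in the wildtype libraries. The deleted libraries lay close together inside the wide wildtype range. The means were 27.9 ± 1.09 FPKM in deleted (SD, n = 3) and 33.4 ± 7.78 FPKM in wildtype libraries (SD, n = 4), and the difference was -0.23 (SE 0.18, 95% CI -0.65 to 0.20; limma adjusted p = 0.795, exact permutation p = 0.314). By name prefix it was -0.52 (BI) and 0.10 (BM). It was -0.14 without wildtype replicate 1 or 2 and -0.38 without wildtype replicate 4. The sum of 10 pericyte and smooth muscle genes was highest in deleted replicate 2 and wildtype replicate 3, at 2239 and 2215 FPKM, against 830 to 1191 FPKM in the other 5 libraries, and most of it came from the contractile genes Acta2 and Tagln. The pericyte gene Cspg4 of the same list was at 15.9, 14.9 and 15.6 FPKM in the deleted libraries, against 22.7, 29.1, 20.4 and 14.5 FPKM in the wildtype libraries, with its highest and lowest values in the same libraries as Heyl. Pdgfrb, the PDGF receptor of pericytes, was also highest in wildtype replicate 2 (92.5 FPKM) and lowest in wildtype replicate 4 (45.9 FPKM). These 2 genes were picked from the list after their values were seen, and no other gene of the list was highest in wildtype replicate 2. Rgs5 was highest in wildtype replicate 3 (212 FPKM). Kcnj8 and Abcc9 were highest in wildtype replicate 1 (29.0 and 23.3 FPKM) and lowest in wildtype replicate 3 (12.5 and 3.92 FPKM). The part of vessel-wall cells in Heyl was not tested.

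Hes5 (chromosome 4, 154335032 to 154336480), a repressor known from neural progenitors and early nephrons, was at 0.170, 0.257 and 0.0764 FPKM in the deleted libraries, against 0, 0.0621, 0.107 and 0.247 FPKM in the wildtype libraries. These values rested on 4, 5 and 2 inferred fragments in the deleted libraries, against 0, 1, 3 and 6 in the wildtype libraries. For the library with 0 fragments, counting error allows a level of up to 0.152 FPKM (3 fragments). The gene failed the filter on low values, and no fold change is given at this depth. Hes5 was at most 1.13% of the summed FPKM of Hes1 and Hes5. This share, which rests on the same 0 to 6 fragments, differed by 0.323 percentage points (exact permutation p = 0.343, adjusted p = 0.514 over the 3 ratios), by 0.709 within BI and by -0.259 within BM. Without deleted replicate 2 it differed by 0.0564.

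The difference was below 0 in 9 of the 9 tested members, beside 60.7% of the 13469 genes tested, and the median difference was -0.23, beside -0.05 over all genes tested. Of the 9, 0 were called at a limma adjusted p of 0.05 (background 0%), and 1, Hey1, was past an unadjusted p of 0.05 (background 4.49% in either direction and 1.2% lower in deleted). Every deleted library was below every wildtype library in 0 of the 9 (background 2.05%) and above in 0 (background 2.84%). Without deleted replicate 2, 9 of 9 differences were below 0, beside 46.7% of all genes tested, and the median was -0.12, beside 0.01. Within BM, which holds a single deleted library, 5 of 9 were below 0, beside 48.6%, and the median was -0.01. Within BI, 8 of 9 were below 0, beside 66.1%, and the median was -0.42. Without wildtype replicate 2, 8 of 9 were below 0, beside 59%. Whether the differences within BI and within BM are unequal was not tested.

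**Figure D2:**
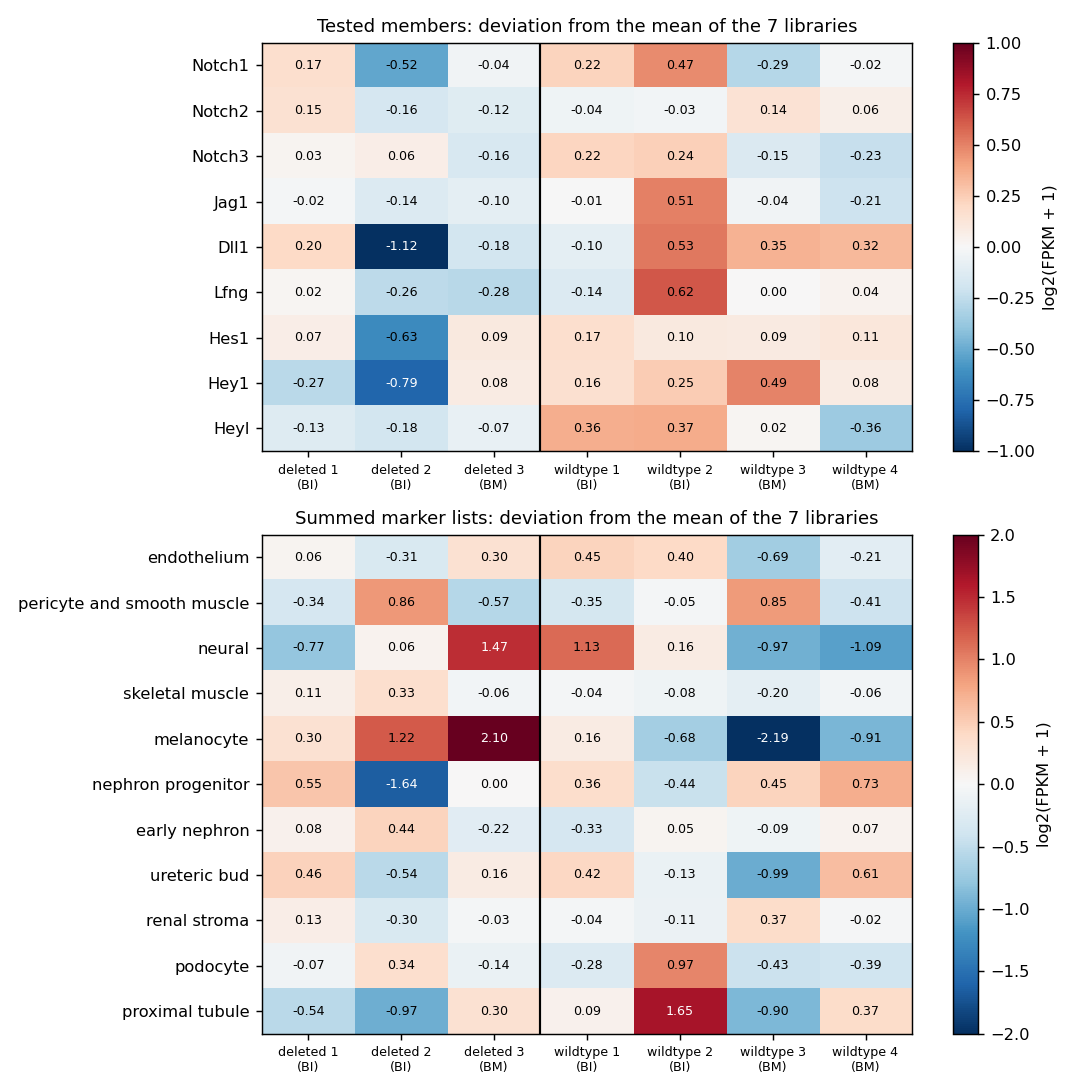
Deviation of each library from the mean of the 7 libraries in log2(FPKM + 1) (colour and printed value), for the 9 tested members (top; colour scale to 1 in each direction) and for the summed FPKM of 11 marker lists (bottom; colour scale to 2); columns are the 3 E2-2 deleted libraries, left of the black line, and the 4 E2-2 wildtype libraries, with the name prefix in brackets. Deleted replicate 2 is lowest for Dll1 (-1.12) and for nephron progenitor genes (-1.64), and wildtype replicate 2 is highest for Lfng (0.62) and for proximal tubule genes (1.65).

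**Figure D3:**
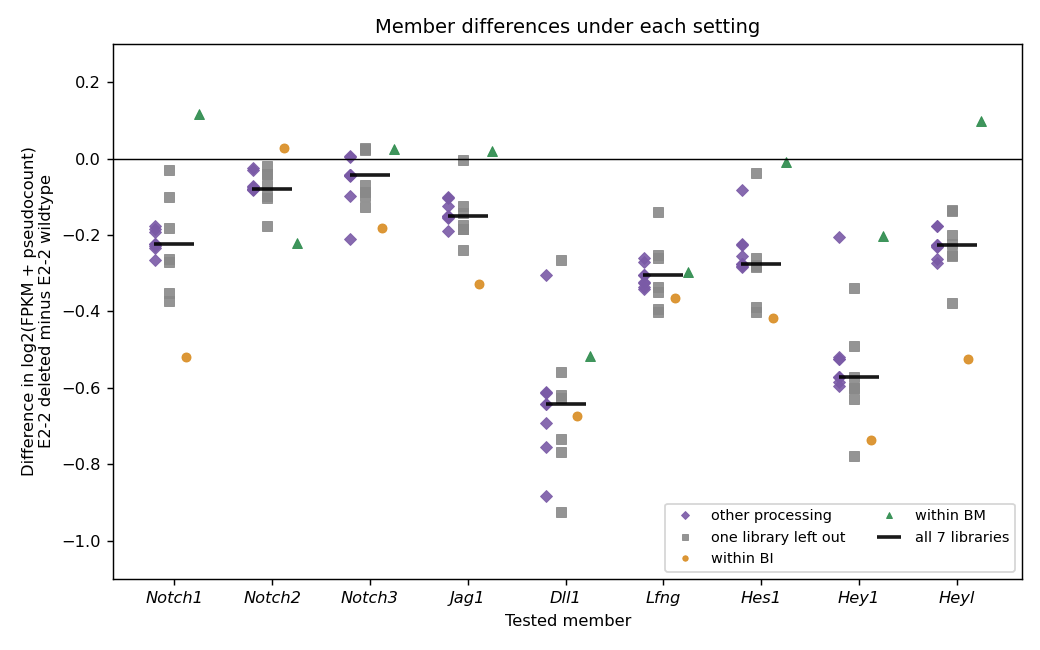
Difference of each tested member, E2-2 deleted minus E2-2 wildtype, in log2(FPKM + pseudocount) with all 7 libraries (black bar), with other processing, with 1 library left out, and within each name prefix. The points of Dll1, Lfng, Hes1 and Hey1 stay below 0 in all settings shown, and the BM points of Notch1, Notch3, Jag1 and Heyl lie above 0.

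Over the 7 libraries, which share 2 genotypes and 2 name prefixes, Jag1 and Lfng had a Pearson r of 0.87 (Spearman 0.32) and 0.86 over the 6 libraries without deleted replicate 2, with wildtype replicate 2 highest in both. Notch3 and Heyl had an r of 0.79 (Spearman 0.68) and 0.88 over those 6. Dll1 and Hes1 had an r of 0.87 (Spearman 0.32), which was -0.37 without deleted replicate 2. Hes1 and Hey1 had an r of 0.85, and Dll1 and Hey1 one of 0.82, which were 0.30 and 0.28 without deleted replicate 2. Hes5, at the edge of detection, had an r of -0.88 with Heyl. These pairs are from 45 computed, and no rule set beforehand chose them. Of the 36 pairs without Hes5, 31 had an r above 0, with a median of 0.46. Without deleted replicate 2, 25 had one above 0, with a median of 0.25. The share over pairs of all genes tested was not computed, so these counts are not particular to the members. These values describe the libraries and carry no test.

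The genes most like the 3 members of largest spread (Dll1, Hey1 and Notch1) were taken as those with the highest r over the 7 libraries out of all genes tested, so a high r was fixed by the choice. For Dll1 they were Igf2bp3, an RNA-binding protein of fetal tissue (r = 0.99, or 0.97 over the 6 libraries without deleted replicate 2), Mthfd1, an enzyme of folate metabolism (0.99 and 0.96), and Dffb, a nuclease of apoptosis (0.99 and 0.96). For Hey1 they were Mrps25, a protein of the mitochondrial ribosome (r = 1.00 and 0.99), Calml4, a calmodulin-like gene (0.99 and 0.98), and 6230427J02Rik (0.98 and 0.98). For Notch1 they were Fam120b (0.99 and 0.99), Lrrc39 (0.98 and 0.96) and 2810432L12Rik (0.98 and 0.99). Mthfd1 varied with Dll1 at a higher level but over a narrower fold range, since Dll1 ran from 0.972 to 5.18 FPKM. Mthfd1 was at 28.6, 16.6 and 24.6 FPKM in the deleted libraries, against 24.7, 30.0, 28.7 and 29.9 FPKM in the wildtype libraries.

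The rest of the pathway was read from a list of 49 genes by role, of which 44 passed the filter on low values, and 0 of the 44 passed the test in either direction. Of these, 22 had a difference below 0 (50%, beside 60.7% of all genes tested), and the median was -0.0003. At an unadjusted p under 0.05, 1 was higher, the co-repressor gene Tle4 (background 3.29%), and 0 were lower (background 1.2%). Without deleted replicate 2, 17 of the 44 were below 0, beside 46.7% of all genes tested.

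Notch4, the endothelial receptor, was at 11.1, 8.02 and 10.7 FPKM in the deleted libraries, against 17.7, 17.9, 8.97 and 11.4 FPKM in the wildtype libraries. The BI wildtype libraries were high and the groups overlapped. The difference was -0.42 (SE 0.25; limma adjusted p = 0.795), -0.85 within BI and 0.07 within BM. Dll4, an endothelial ligand named here after its values were seen, was at 25.8, 16.8 and 30.7 FPKM in the deleted libraries, against 38.0, 35.5, 16.3 and 21.5 FPKM in the wildtype libraries, a difference of -0.14 (SE 0.32), or -0.79 within BI and 0.68 within BM. The difference of Dll4 was 0.09 without deleted replicate 2, 0.03 without wildtype replicate 1 and -0.36 without wildtype replicate 3. The wildtype BI libraries also had the largest sums of the 10 endothelial genes, which were 462, 358 and 548 FPKM in the deleted libraries, against 605, 585, 274 and 383 FPKM in the wildtype libraries, and their part in Notch4 and Dll4 was not tested. No gene of that list was at 0 in any library.

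Of the other ligand and ligand-like genes, 4 of 6 were tested, 2 with a positive and 2 with a negative difference. The neural Notch-binding gene Dner was at 2.47 ± 1.57 FPKM in deleted (SD, n = 3) and 1.26 ± 0.812 FPKM in wildtype libraries (SD, n = 4), a difference of 0.56 (SE 0.43; limma adjusted p = 0.795), and the ligand gene Jag2 differed by -0.19 (SE 0.24). The difference of Dner was -0.04 within BI and 1.40 within BM, and that of Jag2 was -0.68 within BI and 0.43 within BM. Without wildtype replicate 1 that of Jag2 was -0.04. The 9 neural marker genes, led by Stmn2, summed to 44.3, 79.5 and 213 FPKM in the deleted libraries, against 168, 84.9, 38.4 and 35.2 FPKM in the wildtype libraries, and their part in Dner was not tested.

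Genes that modify or deliver the receptors and ligands had small differences over all 7 libraries, but some differed more within a name prefix. Mfng, a fringe gene named here after its values were seen, differed by -0.42 within BI and by 0.48 within BM. The 4 glycosylation genes differed by -0.04 (the fringe gene Rfng) to 0.03, and Pofut1, the enzyme that adds fucose to Notch, by -0.03 (SE 0.09). The sign of both turned in some settings, to 0.01 for Rfng without deleted replicate 1 and to 0.07 for Pofut1 within BI. The 4 genes of ligand endocytosis, ubiquitin ligases that act on ligands, differed by -0.20 (Neurl1b, SE 0.20) to -0.01, and Mib2 by -0.08 (SE 0.10). Of the 10 protease genes, which cut the receptor, 7 had a positive and 3 a negative difference, from -0.10 to 0.20. Ncstn, a subunit of gamma-secretase, was at 61.6 ± 1.96 FPKM in deleted (SD, n = 3) and 57.4 ± 4.13 FPKM in wildtype libraries (SD, n = 4), and Aph1c, another subunit whose reads may be split with its close copy Aph1b, differed by 0.20 (SE 0.17). The difference of Aph1c was -0.0041 within BI and 0.49 within BM.

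In the nucleus, Rbpj, the DNA-binding partner of Notch, was at 18.9, 23.4 and 20.7 FPKM in the deleted libraries, against 18.9, 18.3, 20.2 and 19.8 FPKM in the wildtype libraries, a difference of 0.11 (SE 0.10; limma adjusted p = 0.795). The groups overlapped, and deleted replicate 2, the lowest library for Hes1, Hey1 and Dll1, was the highest for Rbpj. Without that library the difference of Rbpj was 0.03. Maml2, a co-activator of the complex, was at 7.32 ± 1.99 FPKM in deleted (SD, n = 3) and 5.56 ± 0.703 FPKM in wildtype libraries (SD, n = 4), a difference of 0.32 (SE 0.18), or 0.14 without deleted replicate 2. Of the 8 modulators, the Deltex genes Dtx4 and Dtx2 differed by 0.18 (SE 0.10) and -0.10 (SE 0.11). Hes6, a HES gene that counteracts Hes1 in neural cells, was at 23.5 ± 3.04 FPKM in deleted (SD, n = 3) and 26.6 ± 1.28 FPKM in wildtype libraries (SD, n = 4), and Hes2, Hes3 and Hes7 were under the filter.

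Tle4, a Groucho co-repressor that HES and HEY proteins recruit, was the pathway gene whose groups did not overlap. It was at 12.7, 15.3 and 14.2 FPKM in the deleted libraries, against 11.02, 11.4, 10.6 and 11.2 FPKM in the wildtype libraries. The difference was 0.32 (SE 0.10, 95% CI 0.09 to 0.55; limma unadjusted p = 0.0123, adjusted p = 0.795; exact permutation p = 0.0286, the smallest that 35 splits allow), 0.29 within BI and 0.36 within BM. Every deleted library was above every wildtype library in 2.84% of all genes tested. Tle1, another member of the family, was at 16.6 ± 1.21 FPKM in deleted (SD, n = 3) and 18.1 ± 0.238 FPKM in wildtype libraries (SD, n = 4), a difference of -0.12 (SE 0.09).

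**Figure D4:**
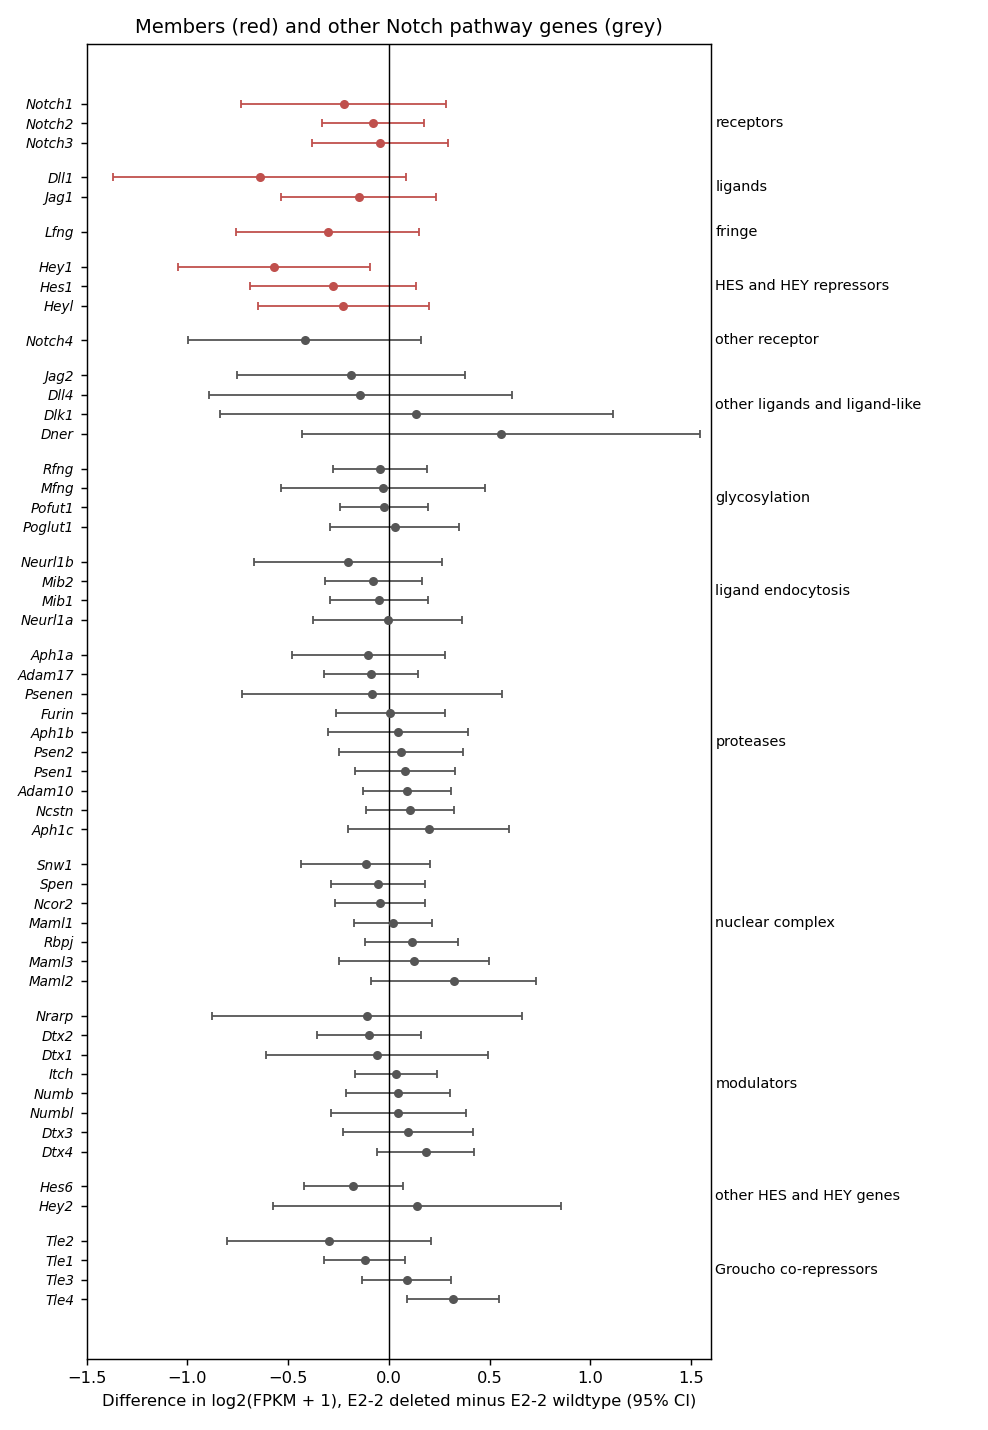
Difference in log2(FPKM + 1), E2-2 deleted minus E2-2 wildtype, with its 95% confidence interval from limma, for the 9 tested members (red) and the 44 other tested Notch pathway genes (grey), grouped by role as named on the right. The intervals of Hey1 (-1.05 to -0.10) and Tle4 (0.09 to 0.55) lie to 1 side of 0 before any adjustment, and those of the other genes shown span it.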

How the data were processed

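The authors deposited 1 gene table per library with an FPKM value and the bounds of its interval, per the file headers. The submitters' processing notes list TopHat2 2.0.4, Cufflinks 2.0.2 and CASAVA 1.8.2 without their roles; neither build nor annotation is given in the sources used here. Deposited starts were taken to count from 0 and raised by 1: of 223 loci that ended at the same base as in GRCm38, 165 then had the same start and 2 had it as deposited. Those 223 were out of 20874 entries matched by symbol and chromosome, so the deposited loci are not GRCm38 positions. They cannot be set against the promoter positions above, and starts may also be off by 1 base. Entries of one symbol were summed. Symbols of 1 table, where 25 had become dates, were taken from the others, since all loci matched. Left out were genes whose FPKM status was not OK in every table and loci under 200 bases. This kept 22363 symbols, and 13469 of them, averaging 1 FPKM or more, were tested with limma 3.58.1 in R 4.3.3 on log2(FPKM + 1), over all 7 libraries with a mean-variance trend, 2-sided, with Benjamini-Hochberg adjustment over all genes tested and a threshold of 0.05. On simulated data for this comparison (13469 genes, 200 changed), 68% of changes of 1 and 87% of changes of 2 on the log2 scale were recovered. Of the unchanged genes, 11 were called. The simulated noise was independent between genes, with no outlying library and no effect of name prefix. Changes below 1 were not simulated, so these rates do not cover differences as small as those of the members. For single members and ratios, the exact permutation test (2-sided) ran over all 35 splits, with 0.0286 as its smallest p.

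Replicates are numbered by accession order, so samples are not paired. Fragment numbers were inferred as the square of 2 times the FPKM over the distance to the upper bound; 78.9% to 80.1% of those under 300 in genes with a single start were within 0.05 of a whole number (10% by chance), and they cover counting error only. Promoters are from RefSeq. The named genes were the 10 members, Rbpj, Notch4, in each role of the pathway the genes of smallest p (2 where at least 3 were tested, otherwise 1), the 3 genes most like each of the 3 members of largest spread, and the leading gene of a marker list. The members and lists were chosen with earlier results of these data known. Protein sequences were not used here. Alternatives were other pseudocounts, filters, scalings and weights, the name prefix, and leaving out each library.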

Additional observations from a re-analysis of the deposited data

Results flagged for a closer look

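In the 4 E2-2 wildtype libraries, 3 genes of the pathway list had a value far from the other 3 libraries, of 62 quantities checked, and chance flags about 1 in 20. Psen2, a catalytic subunit of gamma-secretase, was at 8.48, 9.83 and 9.84 FPKM in the deleted libraries, against 8.31, 8.22, 11.1 and 8.41 FPKM in the wildtype libraries, where the gap to the nearest value was 0.932 of the range. For Hes7 the gap was 0.833 of the range, with wildtype replicate 3 at 0.706 FPKM. For Hes3 it was 1 of the range, with 1 wildtype library at 0.0413 FPKM and the others at 0. Hes7 and Hes3 were under the filter on low values.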

How the results depend on the processing

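Of 161 alternative values of the 9 tested members, 151 kept their direction and none passed the threshold, and 10 had the other sign. Notch3 was 0.0065 with median-of-ratios scaling and 0.0052 with quantile normalization. Within BM the differences of Notch1, Notch3, Jag1 and Heyl were 0.12, 0.0252, 0.0210 and 0.10, and within BI that of Notch2 was 0.0280. The median of the members was -0.42 within BI and -0.0079 within BM, and 5 of 9 were below 0 within BM. Of all genes tested, 0 were called (605 at an unadjusted p under 0.05), against 4 with no filter on low values and 1 with a weight per library. Leaving out 1 library at a time, differences spanned -0.37 to -0.03 for Notch1, -0.18 to -0.02 for Notch2, -0.13 to 0.03 for Notch3 (0.03, 0.02 and 0.0287 without deleted replicate 3, wildtype replicate 1 and wildtype replicate 2), -0.24 to -0.0028 for Jag1, -0.93 to -0.27 for Dll1, -0.40 to -0.14 for Lfng, -0.40 to -0.04 for Hes1, -0.78 to -0.34 for Hey1 and -0.38 to -0.14 for Heyl. The share of Notch2 among the receptors differed by -4.18 percentage points within BM and by -0.579 to 3.08 with a library left out (-0.242 without wildtype replicate 1). That of Hes5 differed by -0.259 within BM. The causes were not tested. Dll1 was not fitted at a minimum of 5 FPKM. No paired analysis was possible because the labels give no replicate numbers. A low gene such as Hes5 is limited by depth. The counts of members below 0, and those of the library lowest or highest after scaling, were chosen after seeing the data.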

Other observations

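Marker lists of cells other than those named beside the Notch genes varied between libraries, and no gene of any list passed the test (smallest limma adjusted p = 0.795). The 6 melanocyte genes, led by Pmel, summed to 25.9, 49.9 and 92.5 FPKM in the deleted libraries, against 23.3, 12.6, 3.78 and 10.6 FPKM in the wildtype libraries. Every deleted sum was above every wildtype sum, narrowly so for deleted replicate 1 (25.9 FPKM) and wildtype replicate 1 (23.3 FPKM). No other marker list was split this way. Of all genes tested, 2.84% were, but that is a share of single genes and not of sums. Tyr, Dct, Pmel and Mlana were each split this way, and Tyrp1 and Mitf were not. Tyrp1 was at 1.08 FPKM in deleted replicate 1 and 1.43 FPKM in wildtype replicate 1. Mitf was at 2.46 FPKM in deleted replicate 1 and 3.22 FPKM in wildtype replicate 2. Pmel itself, a pigment granule gene, was at 7.96, 13.4 and 25.4 FPKM in the deleted libraries, against 7.33, 3.43, 1.17 and 3.24 FPKM in the wildtype libraries. Of the 6 early nephron genes, 5 had a negative and 1, the signal Wnt4, a positive difference. Their sum was 72.4 to 115 FPKM in the deleted and 66.9 to 88.7 FPKM in the wildtype libraries, and Wnt4 led it, at 41.1, 99.98 and 39.0 FPKM in the deleted libraries, against 28.7, 30.3, 36.8 and 30.5 FPKM in the wildtype libraries. Deleted replicate 2, the library with the lowest Dll1 and nephron progenitor levels, had the highest Wnt4 and the lowest Lhx1, Pax8, Fgf8 and Pou3f3, with the transcription factor Pax8 at 6.68 FPKM there, against 23.1 and 14.7 FPKM in the other deleted libraries and 17.4 to 26.1 FPKM in the wildtype libraries. The part of these markers in the Notch members was not tested.

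The 6 ureteric bud genes, led by Calb1, summed to 77.0 to 155 FPKM in the deleted and 55.9 to 172 FPKM in the wildtype libraries. The 4 genes of renal stroma, led by Tcf21, summed to 167 to 225 FPKM in the deleted and 190 to 265 FPKM in the wildtype libraries. The 8 skeletal muscle genes, led by Tnnt1, summed to 8.09 to 10.9 FPKM in the deleted and 7.23 to 8.18 FPKM in the wildtype libraries, and 4 of them (Myod1, Myog, Myf5 and Ckm) were listed at 0 in at least 1 library. Lrp2 led the proximal tubule list.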
